A study of Mus musculus with 9 samples.

Results

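The 10 circadian clock genes examined here are Bmal1 (listed in the annotation as Arntl), Clock, Per1, Per2, Per3, Cry1, Cry2, Nr1d1, Nr1d2 and Dbp. They were taken by symbol from a table of 55416 mouse gene identifiers, and all 10 were found and passed a filter of a mean over the libraries of at least 1 CPM (counts scaled to a library sum of 1000000), as did 12260 genes in all. The RNA came from interscapular brown adipose tissue of C57BL/6J mice that express Cas9 and were 8 to 10 weeks of age. An AAV8 vector (an adeno-associated virus) had been injected into the tissue with a guide RNA, either AAV8-Control sgRNA (5 samples) or AAV8-UCP1 sgRNA (4 samples), and the mice were then kept at 22 °C for 14 days. Cas9 and the vector are thus shared by both guides, and the sources used here do not name the promoter that drives Cas9.

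The 9 columns of the table bear a number and the letters BAT. These letters fit the tissue of all 9 samples, but no label holds the numbers, so no column is assigned to a guide and no comparison between the guides is made. The libraries are called A to I here, in ascending order of the column number. They held between 15460829 and 17909534 counts each. Libraries D to G, whose column numbers form a run of 4, were lower than the other 5 for several of the clock genes, and the values of both sets are given with the within-library ratios. Of 13 brown adipocyte markers 13 passed the filter, among them Cidea at 1265 to 1749 CPM and Adipoq at 576 to 735 CPM. Of 5 lymphocyte markers 0 passed, and their sum was at most 2.48 CPM. The 10 skeletal muscle markers together ranged from 238 CPM in library C to 3597 CPM in library F, and their part in the other values was not tested.

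The mammalian clock is a transcriptional feedback loop. BMAL1 and CLOCK form a dimer that binds E-box elements and activates the Per, Cry, Nr1d and Dbp genes. PER and CRY proteins then inhibit that dimer, while the nuclear receptors encoded by Nr1d1 and Nr1d2 (REV-ERBα and REV-ERBβ) compete with ROR receptors at ROR elements and repress Bmal1. DBP, with its relatives TEF and HLF, activates genes that carry a D-box. In brown fat, as in other peripheral tissues of the mouse, Bmal1 transcripts peak at about the opposite time of day from Dbp and Per transcripts.

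The elements through which these proteins act were searched for in the promoter windows of the clock genes, 250 bases before to 50 after each start site, from RefSeq on GRCm38.p6. An entry was found for 9 of the 10 genes, all but Per2, with 13 start sites between them. The E-box was searched as CACGTG, the D-box as TTATGTAA or TTACGTAA, and the ROR element as AANTN directly followed by GGTCA, all on both strands. Motifs of different kinds did not overlap in the windows printed here. An E-box stood in 7.15% of all 32851 windows of the table, a D-box in 1.06% and a ROR element in 0.606%. Among the 13 windows of the clock genes, the E-box stood in 2, the D-box in 1 and the ROR element in 1, each window from a different gene. Those 4 windows are shown 5′ to 3′ on the gene's strand, with the motif in capitals, since they hold the elements of the loop just named. For Bmal1 (chr7:113207261-113207560, plus strand) the ROR element begins at position 28 after the start site. For Per3 (chr4:151044616-151044915, minus strand) the 2 D-boxes begin at positions -205 and -158. For Per1 (chr11:69098699-69098998, plus strand) the E-box begins at position -166, and for Cry1 (chr10:85185005-85185304, minus strand) at position -60. A match is a description of these letters and not of binding.
Bmal1: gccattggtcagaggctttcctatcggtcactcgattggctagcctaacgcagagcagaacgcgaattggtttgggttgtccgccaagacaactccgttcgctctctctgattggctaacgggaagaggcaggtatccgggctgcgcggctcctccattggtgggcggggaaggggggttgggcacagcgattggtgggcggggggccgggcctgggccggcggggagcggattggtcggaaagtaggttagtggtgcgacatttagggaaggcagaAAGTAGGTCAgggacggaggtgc
Per3: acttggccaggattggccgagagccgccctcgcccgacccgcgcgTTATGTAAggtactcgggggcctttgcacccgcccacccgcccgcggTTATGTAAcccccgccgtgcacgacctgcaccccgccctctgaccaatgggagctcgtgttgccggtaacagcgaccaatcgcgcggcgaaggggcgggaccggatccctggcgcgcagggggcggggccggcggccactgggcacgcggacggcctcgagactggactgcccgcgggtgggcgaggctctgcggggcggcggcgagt
Per1: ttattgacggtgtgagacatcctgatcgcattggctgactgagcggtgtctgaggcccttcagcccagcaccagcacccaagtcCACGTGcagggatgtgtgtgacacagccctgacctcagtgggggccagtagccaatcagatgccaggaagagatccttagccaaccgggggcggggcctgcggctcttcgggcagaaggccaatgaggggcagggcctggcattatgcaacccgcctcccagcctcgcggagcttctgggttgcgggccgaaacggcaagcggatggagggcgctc
Cry1: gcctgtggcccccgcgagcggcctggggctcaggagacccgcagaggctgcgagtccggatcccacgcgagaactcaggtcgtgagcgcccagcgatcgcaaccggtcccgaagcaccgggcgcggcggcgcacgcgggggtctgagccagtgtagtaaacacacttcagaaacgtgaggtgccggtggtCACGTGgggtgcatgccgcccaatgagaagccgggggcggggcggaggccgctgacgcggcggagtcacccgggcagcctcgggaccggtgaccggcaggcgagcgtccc

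Transcript levels were compared between genes only per length, as CPM per kilobase of exon (RPKM), with exon lengths from GENCODE M21. By the median over the 9 libraries the highest was Nr1d1 at 73.4 RPKM, followed by Dbp at 26.4, Per1 at 17.8 and Nr1d2 at 12.8 RPKM. Per2 at 7.05, Per3 at 5.47, Cry2 at 5.24 and Clock at 4.22 RPKM came next, and the ranges over libraries of all these neighbours overlapped. Cry1 had a median of 2.42 RPKM (range 1.49 to 4.17). Bmal1 was the lowest, with a median of 0.475 RPKM and a range of 0.167 to 1.23 that did not overlap that of Cry1. In bulk tissue, fewer cells of a type and less RNA per cell cannot be told apart.

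The clock genes differed between libraries by more than most genes did. For 8 of the 10 the highest library was at least 2-fold above the lowest, against 32.3% of all genes tested. Their median fold between the highest and the lowest library was 2.77, and it was 1.70 over all genes tested.

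Among the activators, Bmal1 had 1.26 CPM in library B, a median of 3.57 CPM and 9.23 CPM in library G, a 7.35-fold range that was 4.84-fold without library G. Only 21 to 159 reads per library lie behind these values. The 95% Poisson interval, which covers counting error only, ran from 0.778 to 1.92 CPM in library B and from 7.85 to 10.8 CPM in library G, so the extremes were apart beyond counting error. Library F was next at 6.08 CPM, and the other 7 lay between 1.26 and 3.68 CPM. Clock, which encodes the partner of BMAL1, ranged 1.94-fold, from 44.0 CPM in library C through a median of 58.0 CPM to 85.3 CPM in library G. Library E was also high for Clock, at 78.0 CPM.

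Dbp, the output activator of the D-box, had 22.0 CPM in library G, a median of 78.9 CPM and 136 CPM in library C. Its 6.20-fold range was wider than that of 96.9% of all genes tested, and it was 3.05-fold without library G. The library that was highest for Bmal1 and Clock was lowest for Dbp. In GENCODE M21, 18% of the exon bases of Dbp overlap Sphk2 on the opposite strand (28.7 to 50.8 CPM), and the sources used here do not say whether counting used strand, so reads of the overlap cannot be told apart.

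**Figure D1:**
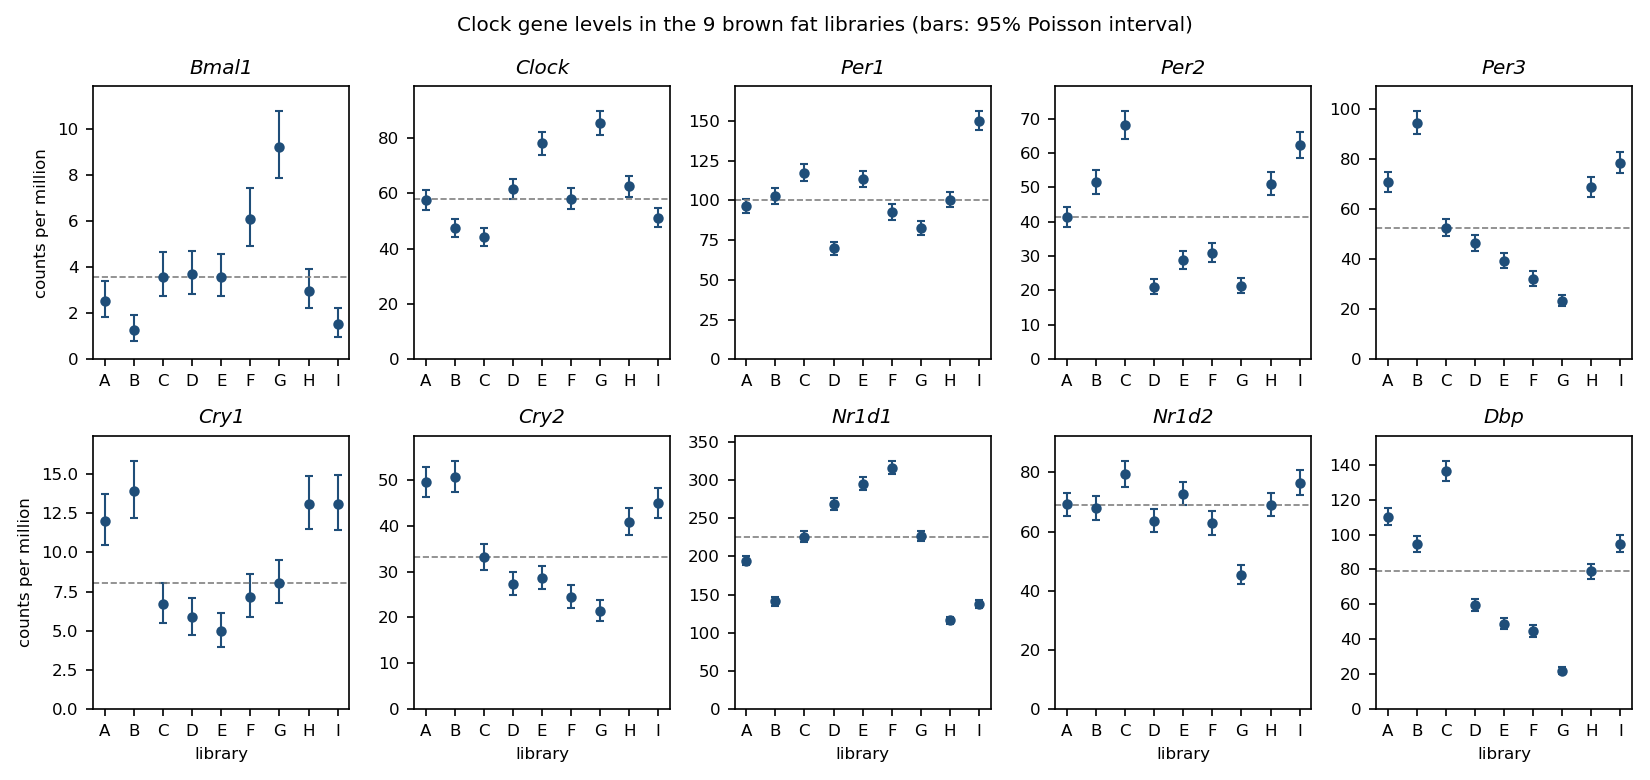
Level of each of the 10 clock genes (CPM, linear axes from 0) in the 9 libraries, A to I; bars are 95% Poisson intervals and the dashed line is the median. Library G is the highest for Bmal1 (9.23) and Clock (85.3) and the lowest for Per3 (23.4), Cry2 (21.4), Nr1d2 (45.3) and Dbp (22.0).

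The Per genes encode the period repressors. Per3 varied most, 4.04-fold, from 23.4 CPM in library G through a median of 52.6 CPM to 94.5 CPM in library B. Per2 varied 3.23-fold, from 21.1 CPM in library D through a median of 41.3 CPM to 68.1 CPM in library C. Library G was close to the lowest for Per2 as well, at 21.4 CPM. Per1, which is also induced by glucocorticoids, varied 2.15-fold, from 69.8 CPM in library D through 100.4 CPM to 150 CPM in library I. Without library I its range was 1.68-fold, and it was 1.97-fold with TMM scaling.

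The Cry genes encode the cryptochrome repressors. Cry2 had 21.4 CPM in library G, a median of 33.1 CPM and 50.7 CPM in library B. Cry1 had 4.97 CPM in library E, a median of 8.07 CPM and 13.9 CPM in library B. Library C, the highest for Dbp and Per2, was at 6.69 CPM for Cry1, below the median.

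Nr1d1 and Nr1d2 encode the REV-ERB repressors and did not share an order of libraries. Nr1d1 had 116 CPM in library H, a median of 226 CPM and 316 CPM in library F, a 2.73-fold range. Nr1d2 varied least of the 10 genes, 1.75-fold, from 45.3 CPM in library G through 69.1 CPM to 79.5 CPM in library C. Without library G the range of Nr1d2 was 1.26-fold. In GENCODE M21, 8.55% of the exon bases of Nr1d1 overlap Thra on the opposite strand (62.6 to 100.4 CPM), with the same limit.

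Correlations were computed over the 9 libraries on log2(CPM + 0.5), each of the 10 clock genes with every gene tested, 122545 pairs in all. Nothing in the labels says that the samples came from separate animals, and the p-values measure only the spread between these libraries. The 9 libraries come from both guides and were permuted as 1 set. A difference between guides and other spread between libraries thus cannot be told apart in these correlations. By the exact two-sided permutation test with Benjamini-Hochberg adjustment over all pairs, 0 of 122545 pairs passed an adjusted p of 0.05, and 0 passed with Spearman's rho. With 9 libraries the smallest exact permutation p possible for Pearson's r is 2.8e-06, and 7 pairs would have had to reach it for any to pass. For Spearman's rho the smallest possible p is higher. At an unadjusted exact p under 0.05 there were 8755 pairs, or 7.14%, by Pearson's r and 7254 by Spearman's rho. Among the 45 pairs of clock genes, 24 were under that unadjusted level by Pearson's r and 16 by Spearman's rho. Of the 24, 12 were positive, against 4.16% of all pairs, and 12 were negative, against 2.99%.

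The signs of the 45 correlations fell into blocks. The 3 pairs among Bmal1, Clock and Nr1d1 were all positive, with r from 0.36 to 0.65. The 21 pairs among the other 7 genes were also all positive, with r from 0.11 to 0.97 and a median of 0.71. The 21 pairs between these sets were all negative, with r from -0.96 to -0.24 and a median of -0.68. The sets were read from these same values, so their agreement in sign is a description. When the 2 libraries farthest from the median of the first gene were left out, the sign of Per1 with Cry1 turned (r = -0.29), and Cry1 with Nr1d2 turned with Spearman's rho (-0.07).

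**Figure D2:**
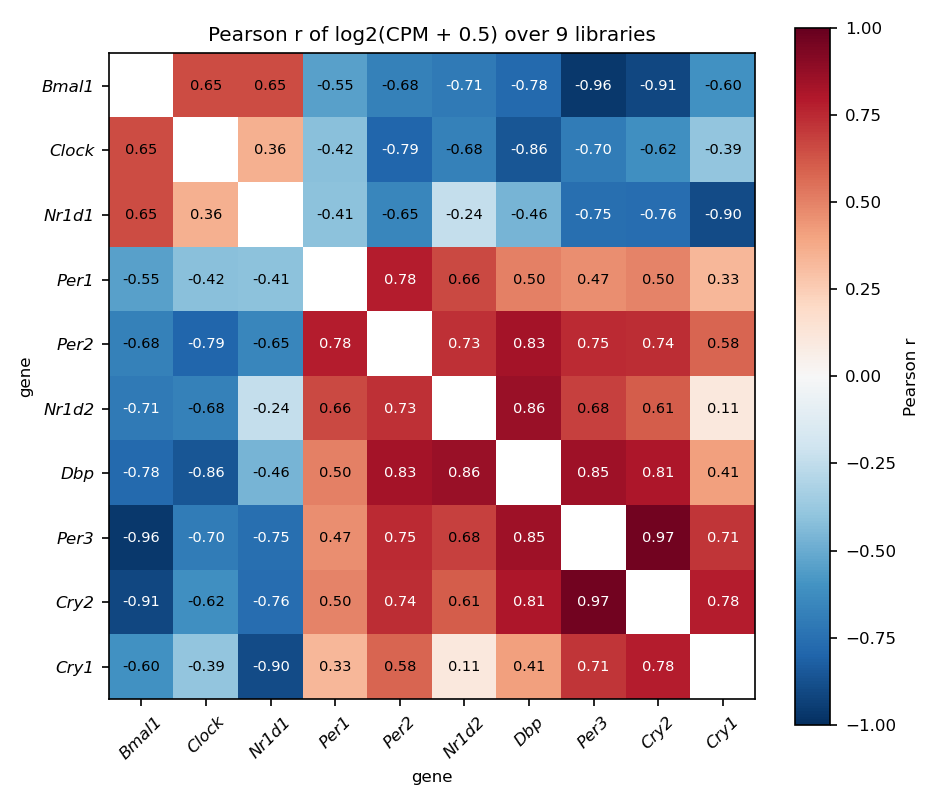
Pearson r of log2(CPM + 0.5) over the 9 libraries for each pair of clock genes, with the value in each cell and colour from -1 (blue) to 1 (red). Bmal1, Clock and Nr1d1 are positive with each other and negative with the other 7 genes, from -0.96 for Bmal1 with Per3 to -0.24 for Nr1d1 with Nr1d2.

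The closest opposite relations of Bmal1 were with Per3 and Cry2. With Per3, Pearson's r was -0.96 (exact permutation p = 1.65e-05, adjusted p = 0.498) and Spearman's rho was -0.95 (exact p = 0.000353, adjusted p = 0.618). Without libraries B and G, the 2 farthest from the median of Bmal1, r was -0.90. With Cry2, r was -0.91 (exact permutation p = 0.000138, adjusted p = 0.521), rho was -0.97 (exact p = 0.000165, adjusted p = 0.618) and r without those 2 libraries was -0.84. Of all 12259 genes paired with Bmal1, Per3 had the most negative r. The opposite order of Bmal1 and Dbp was looser, with r = -0.78 (exact permutation p = 0.0137, adjusted p = 0.626), rho = -0.65 (exact p = 0.0666, adjusted p = 0.753) and r = -0.58 without the 2 libraries. Library C combined the highest Dbp with a Bmal1 level of 3.59 CPM, near the median. In all, 5 of the 9 other clock genes were negative with Bmal1 at an unadjusted exact p under 0.05, against 3.83% of all genes, and 0 were positive at that level, against 2.13%.

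**Figure D3:**
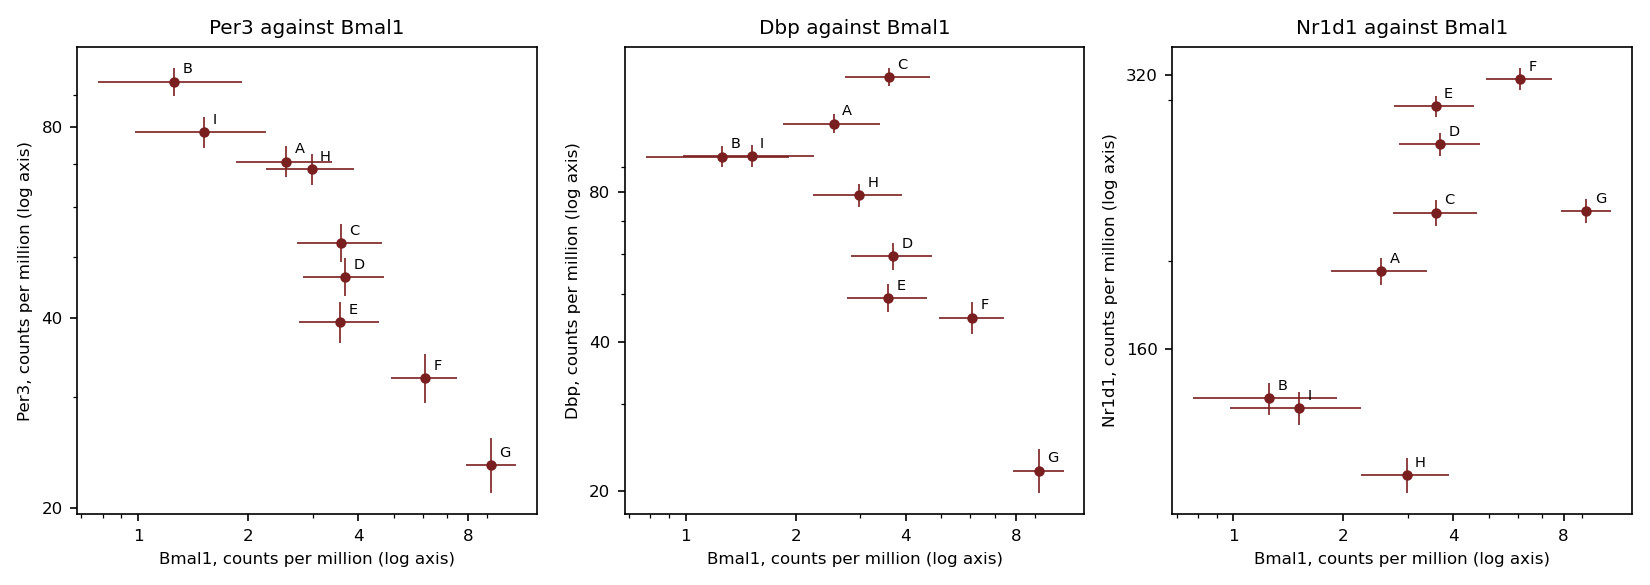
Per3, Dbp and Nr1d1 against Bmal1 in the 9 libraries (CPM, log axes); points are labelled with the library's letter and bars are 95% Poisson intervals. Per3 falls from 94.5 to 23.4 as Bmal1 goes from 1.26 to 9.23, Dbp departs from this order in library C, and Nr1d1 is lowest in library H.

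Per3 and Cry2 followed each other most closely among the clock genes. Their r was 0.97 (exact permutation p = 4.13e-05, adjusted p = 0.498), rho was 0.97 (exact p = 0.000165, adjusted p = 0.618), and r was 0.95 without libraries B and G. Cry1 and Nr1d1 ran opposite, with r = -0.90 (exact permutation p = 0.00179, adjusted p = 0.544), rho = -0.82 (exact p = 0.0108, adjusted p = 0.665) and r = -0.85 without libraries H and B. Dbp went with Nr1d2, at r = 0.86 (exact permutation p = 0.00500, adjusted p = 0.583) and rho = 0.78 (exact p = 0.0172, adjusted p = 0.683). That pair rested on its extreme libraries, since r was 0.44 without libraries C and G. Bmal1 and Nr1d1, its repressor, were positive, with r = 0.65 (exact permutation p = 0.0586, adjusted p = 0.713) and rho = 0.72 (exact p = 0.0369, adjusted p = 0.719). Without libraries B and G, r of that pair was 0.74.

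**Figure D4:**
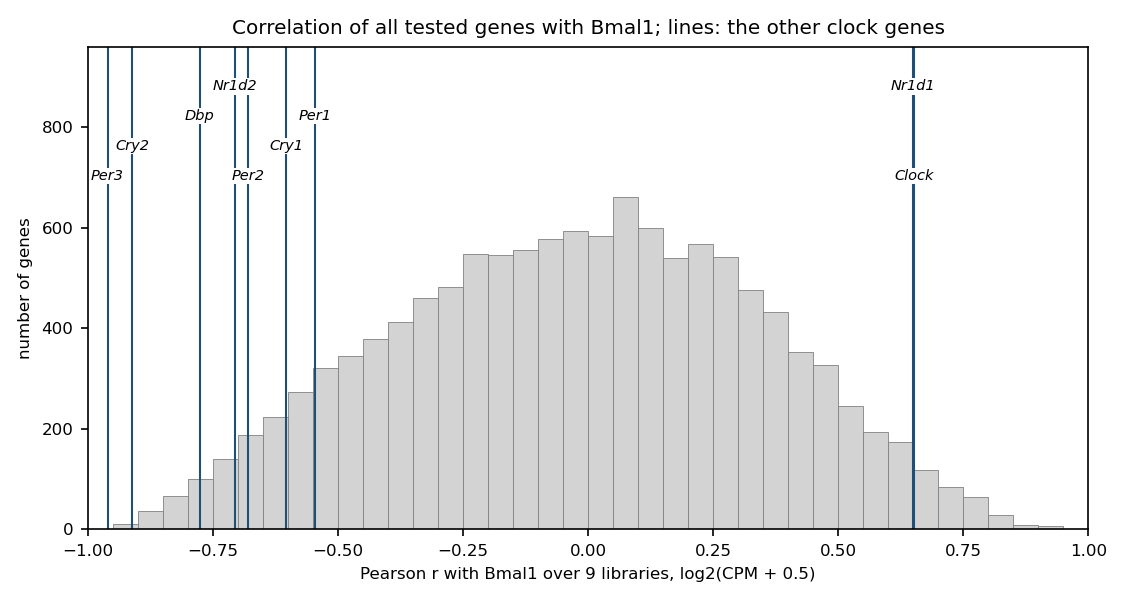
Number of genes (of 12259) by Pearson r with Bmal1 over the 9 libraries, with lines at the other 9 clock genes. On the negative side 7 clock genes run from Per3 at -0.96 to Per1 at -0.55, and Nr1d1 and Clock both lie at 0.65.

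A ratio of genes within a library does not depend on how libraries are scaled. The log2 ratio of Bmal1 to Dbp was lowest in library B at -6.23, had a median of -4.73 and was highest in library G at -1.25. The log2 ratio of Bmal1 to Per3 spanned -6.23 to -1.34, with the same libraries at its ends. The log2 ratio of Bmal1 to Nr1d1 spanned less, from -6.81 in library B to -4.62 in library G. For the ratio to Dbp the 4 highest libraries were G, F, E and D, those of the run of 4 numbers.

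These 4 libraries stood apart for several clock genes. Per2, Per3, Cry2 and Dbp were each lower in all 4 than in any of the other 5, a pattern that 2.37% of all genes tested showed. Dbp was at 22.0 to 59.5 CPM in the 4 and at 78.9 to 136 CPM in the other 5, and Per2 was at 21.1 to 31.0 CPM against 41.3 to 68.1 CPM. These are Per and Cry genes of the repressing arm and the output activator. Per3 was at 23.4 to 46.4 CPM in the 4 against 52.6 to 94.5 CPM, and Cry2 at 21.4 to 28.7 CPM against 33.1 to 50.7 CPM. Nr1d1 was higher in the 4, at 227 to 316 CPM against 116 to 226 CPM, a pattern that 0.971% of all genes showed, but this separation was lost with TMM or DESeq2 scaling. In either direction 3.34% of all genes were separated in this way, against 5 of the 10 clock genes. The other 5 clock genes overlapped, Bmal1 only just, with 3.57 CPM as the lowest of the 4 and 3.59 CPM as the highest of the other 5. The summed skeletal muscle markers were at 871 to 3597 CPM in the 4 and at 238 to 2161 CPM in the other 5. Of the 13 brown adipocyte markers, 1 was separated, Cidea, which encodes a lipid droplet protein, at 1265 to 1419 CPM in the 4 and 1461 to 1749 CPM in the other 5. Of 9 listed genes that glucocorticoids induce, 1 was separated. It was Pdk4, a kinase that inhibits pyruvate dehydrogenase, which was higher in the 4, at 1682 to 2438 CPM against 613 to 1195 CPM. What these levels contribute to the clock gene values was not tested. This run of numbers was noticed after the values were seen, its meaning is not given in the labels, and no test was made on it. With 4 and 5 libraries, neither side is large enough for a correlation of its own. The labels used here give no time of day of collection, and the antiphase of Bmal1 with Dbp and Per3 across libraries is given as a description without a clock time. Nr1d1, like Dbp a gene that BMAL1 and CLOCK activate, did not share that antiphase. Its r was 0.65 with Bmal1 and -0.46 with Dbp, and neither pair passed the adjusted p.

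Ucp1, the target of the guide and the gene of the heat-producing uncoupling protein, split the libraries in another way. Its level was 396 CPM in library E, 445 in H, 459 in A, 606 in G, 2704 in D, 3652 in F, 3848 in B, 3937 in I and 4620 CPM in C, with a gap between G and D. That gap was 60.9% of the whole log2 range, so no correlation over the 9 libraries is given for Ucp1, and neither side of the gap has the 6 libraries needed for one of its own. The 4 libraries D to G held both kinds of Ucp1 level, with 2704 and 3652 CPM in D and F and 396 and 606 CPM in E and G. Likewise the library with the highest ratio of Bmal1 to Dbp, G, had 606 CPM of Ucp1 and the next, F, had 3652 CPM. The lowest ratio, in library B, came with 3848 CPM of Ucp1. Each of the clock genes overlapped between the 2 sides of the Ucp1 gap. Clock leaned with the gap, at 57.6 to 85.3 CPM in libraries A, E, G and H. In libraries B, C, D, F and I it was at 44.0 to 61.5 CPM. No relation of a clock gene to the sides of the gap was tested. Whether the levels of Ucp1 reflect the guide was not tested, since no label ties a library to one.

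**Figure D5:**
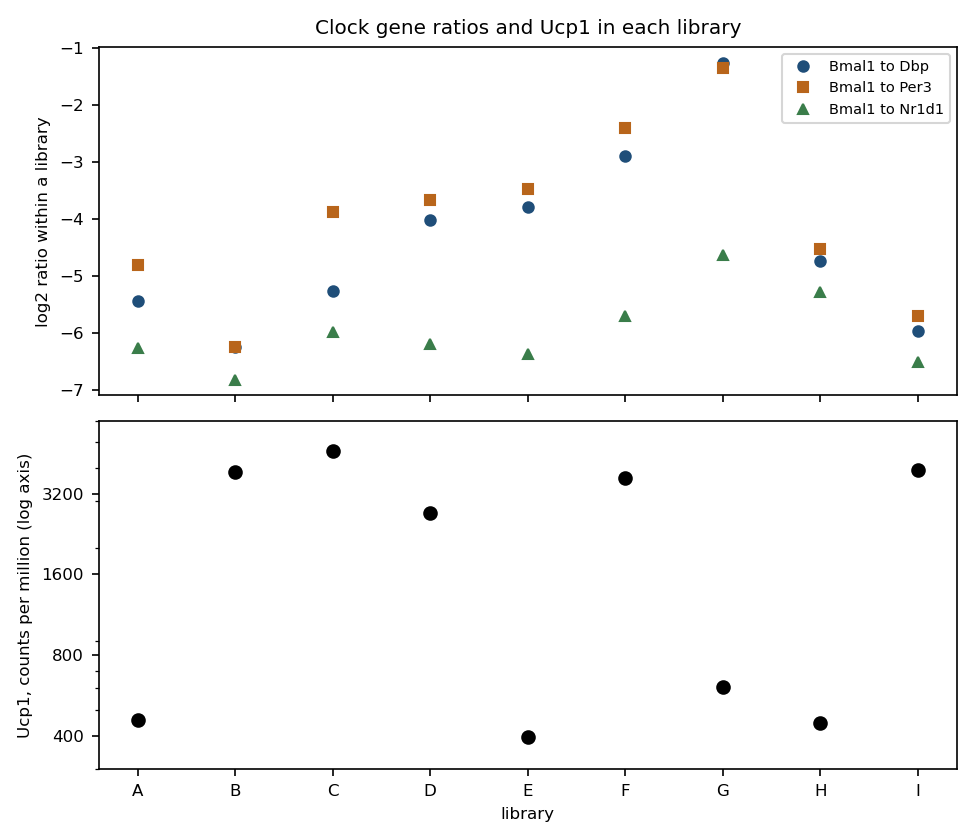
Upper panel, log2 ratio of Bmal1 to Dbp, to Per3 and to Nr1d1 within each library; lower panel, Ucp1 in CPM (log axis), both for libraries A to I. The ratios to Dbp are highest in libraries D to G (-4.01 to -1.25), whereas Ucp1 is at 396 and 606 in E and G and at 2704 and 3652 in D and F.

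Of 16 further clock genes, 14 passed the filter and 11 varied at least 2-fold, against 32.3% of all genes tested, with a median fold of 2.57 against 1.70. Tef and Hlf, the relatives of Dbp, were lower in libraries D to G than in the other 5, as were Usp2, a deubiquitinase under clock control, and Wee1, a cell cycle kinase; these were 4 of the 14, against 2.37% of all genes tested. Tef was at 117 to 158 CPM in the 4 and at 229 to 292 CPM in the others. Usp2 was at 35.8 to 49.8 CPM in the 4 and at 88.9 to 119 CPM in the others. With Bmal1, 5 of the 14 had an unadjusted exact permutation p under 0.05, and all 5 were negative, against 3.83% of all genes negative and 2.13% positive at that level. Hlf had r = -0.88 (exact permutation p = 0.000568, adjusted p = 0.523) and rho = -0.88 (exact p = 0.00308, adjusted p = 0.628). Tef had r = -0.87 (exact permutation p = 0.000568, adjusted p = 0.523) and rho = -0.83 (exact p = 0.00827, adjusted p = 0.665). Both stayed at -0.82 without libraries B and G. Wee1 (r = -0.76) and Usp2 (r = -0.73) each had rho = -0.68 and an exact p of 0.0503 for it. The 9 genes above the unadjusted level had r between -0.42 and 0.38. Npas2, which can replace Clock as the partner of BMAL1, did not pass the filter, at 0.226 CPM in library A to 1.92 CPM in library G; all 4 of libraries D to G had over 1 CPM and the other 5 at most 0.557 CPM. The casein kinases Csnk1d and Csnk1e, which phosphorylate PER proteins, varied 1.52-fold and 1.39-fold.

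Before adjustment, Per1 correlated with most of a list of genes that glucocorticoids induce. Of 9 such genes, 6 correlated with Per1 at an unadjusted exact p under 0.05, against the 7.14% of all pairs, and their median r over the 9 was 0.74. Fkbp5, a chaperone partner of the glucocorticoid receptor, had r = 0.91 with Per1 (exact permutation p = 0.00059, adjusted p = 0.523), rho = 0.93 (exact p = 0.00075, adjusted p = 0.618) and r = 0.78 without libraries D and I. It had 2.98 CPM in library D, a median of 11.1 CPM and 72.7 CPM in library I, the same libraries that were the extremes for Per1. The transcription factor Klf9 had r = 0.87, Tsc22d3 (GILZ) had 0.83 the metallothioneins Mt2 and Mt1 had 0.80 and 0.74, and Zbtb16, a zinc finger repressor, had 0.72. Without libraries D and I these values were between 0.45 for Zbtb16 and 0.80 for Mt2. By Spearman's rho, Mt1 (0.55, exact p = 0.133) and Zbtb16 (0.67, exact p = 0.0589) were above the unadjusted level, and Lcn2 (0.73, exact p = 0.0311) was under it. Pdk4 had r = -0.31. With Dbp, 3 of the 9 were under an unadjusted exact permutation p of 0.05, against the same pooled 7.14%. They were Mt1 (r = 0.72), Fkbp5 (0.69) and Pdk4 (-0.67), and the median r with Dbp was 0.50. With Bmal1, 0 of the 9 were under that level, against 3.83% of all genes negative and 2.13% positive.

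The genes whose pattern over the 9 libraries was most like or most unlike that of Bmal1 were named by Pearson's r, 8 at each end. The most positive was Tshr, the thyrotropin receptor, with r = 0.94 (exact permutation p = 0.000107, adjusted p = 0.520), rho = 0.92 (exact p = 0.00131, adjusted p = 0.618) and r = 0.84 without libraries B and G. Its range was 7.95-fold around a median of 8.91 CPM. It was followed by Chmp5 (0.93), Hnrnpc (0.92), Gatc (0.91), Mgmt (0.90), Mapre1 (0.90), Cdsn (0.90) and Chmp6 (0.89). Apart from Cdsn (3.87-fold), these followers of Tshr had narrow ranges, from 1.16-fold for Hnrnpc to 1.54-fold for Chmp6. Chmp6 had rho = 0.63 (exact permutation p = 0.0760) and r = 0.67 without libraries B and G. The most negative after Per3 were Hdc, histidine decarboxylase, at -0.95, Ubr2 at -0.93 and Dgat2, an enzyme of the last step of triglyceride synthesis, at -0.93 with a median of 1534 CPM. Gm47593 (-0.93), 2810013P06Rik (-0.92), Alpk1 (-0.92) and Map10 (-0.91) completed that end. All of these had an adjusted p of 0.498 or above by the exact permutation test.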

How the data were processed

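RNA-seq of 9 brown adipose tissue samples was analysed. The authors deposited raw counts, whole numbers for each Ensembl gene with no normalisation. Per the submitters' processing notes, the tools were FastQC, STAR and DESeq2 and the build was GRCm39, with no version or role stated. The sources used here name no annotation release, strand setting or counting mode. Columns were placed in the group of brown adipose tissue by their names and in no guide group, and the comparison between guides was not made.

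Counts were scaled to a column sum of 1000000 (CPM) and symbols were taken from GENCODE M21, which named 94.0% of identifiers. Exon lengths and overlaps come from GENCODE M21 on GRCm38, whose coordinates were not set against those of the authors' build. Genes with a mean of at least 1 CPM over all libraries were tested. Correlations used log2(CPM + 0.5) with enumeration of all 362880 pairings (numba 0.67.0, numpy 2.4.6) and Benjamini-Hochberg adjustment over all 122545 pairs; the step was tested on simulated data. Alternatives used TMM factors (edgeR 4.0.16), size factors (DESeq2 1.42.0), a pseudocount of 1 CPM, no filter, Spearman's rho, and libraries left out. Each count has only counting error in its Poisson interval. No pair of libraries agreed within sampling noise (chi-square per gene of at least 11.6). Values named in the text are the 10 genes, Ucp1, the genes of the lists and the 8 genes at each end of the correlation with Bmal1. The genes and lists were chosen with earlier results of these data known. The values of 1 further clock gene are not reported here.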

Additional observations from a re-analysis of the deposited data

Results flagged for a closer look

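Of 28 results checked for a library far from the other 8, namely the 10 clock genes, Ucp1, 3 log2 ratios and 14 further clock genes, 4 had such a library, and chance alone marks about 1 in 20. Nr1d2 was at 45.3 CPM in library G, and the next lowest library was at 62.9 CPM. Ciart, which encodes a repressor of the clock, was at 45.1 CPM in library C, and the next highest was at 21.1 CPM. Rora, which encodes a ROR receptor, was at 33.8 CPM in library E, and the next highest was at 23.9 CPM. Csnk1e was at 23.0 CPM in library D, and the next lowest was at 28.1 CPM.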

How the results depend on the processing

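Of 675 recomputed correlations among the 45 pairs of clock genes, 672 kept their direction. The exceptions were Per1 with Cry1 without the 2 libraries farthest from the median (r = -0.285) and Cry1 with Nr1d2, which was -0.0667 with Spearman's rho and -0.01 to 0.263 with 1 library left out, the lowest without library I. The number of clock gene pairs at an unadjusted exact p under 0.05 was 24 with TMM or DESeq2 scaling, a pseudocount of 1 CPM or no filter, 16 to 28 with 1 library left out, and 10 without the 2 farthest libraries, where fewer libraries enter each test. Under each of these settings 0 pairs passed the adjusted p. The r of Bmal1 with Per3 was -0.976 to -0.932 with 1 library left out. The number of clock genes with an at least 2-fold range was 7 with TMM or DESeq2 scaling, Per1 being lost, and 7 to 8 with 1 library left out. With libraries D to G above the other 5 there was 1 clock gene, Nr1d1, and 0 with TMM or DESeq2 scaling, alternatives added after seeing the data; the cause was not tested. Scaling moved library D most, by 0.14 on the log2 scale, relative to CPM. With a pseudocount of 1 CPM the log2 ratio of Bmal1 to Nr1d1 rose to -5.98 in library B and -5.78 in library I. The planned correlation with Ucp1 was not run, since Ucp1 split the libraries into separate sets. No paired analysis was possible because no replicate number is tied to a column. Bmal1, at 21 to 159 reads per library, is the least precise of the 10 genes.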

Other observations

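Immediate early genes, which cells induce within minutes of a stimulus, varied widely between these libraries. Of 9 such genes 8 passed the filter, with a median fold of 13.9 over those with no library at 0, and 7 of those had a fold of at least 2, against 32.3% of all genes tested. Fosb, at 0 CPM in library B and 7.03 CPM in library I, has no finite fold and is not among the 7. The 32.3% does include genes with a library at 0. Nr4a1, an orphan nuclear receptor induced by adrenergic signals, had 7.99 CPM in library C, a median of 98.4 CPM and 349 CPM in library D. Egr1 had 3.16 CPM in library A, a median of 9.78 CPM and 44.0 CPM in library D. Of the 8 immediate early genes, 0 correlated with Bmal1 and 0 with Per1 at an unadjusted exact p under 0.05 by the permutation test. With Dbp 2 did, against 7.14% of all pairs, a share pooled over the 10 clock genes.

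The inducible chaperone gene Hspa1b had 0.718 CPM in library B, a median of 2.51 CPM and 26.4 CPM in library C, a 36.7-fold range. The cold-inducible RNA-binding protein genes Cirbp and Rbm3 varied 1.78-fold and 1.55-fold. Of 8 temperature-sensitive genes, 1 (Dnajb1, r = 0.73) correlated with Bmal1 by Pearson's r at an unadjusted exact p under 0.05 by the permutation test, against 3.83% of all genes negative and 2.13% positive, and 0 did with Per1 or Dbp. Spearman's rho with Bmal1 put more of them under that level in the exact permutation test. The genes under that level with Bmal1 were Hspa1b (0.82, exact p = 0.0108), Dnajb1 (0.80, exact p = 0.0138), Hspa1a (0.75, exact p = 0.0255) and Cirbp (-0.73, exact p = 0.0311). Their adjusted p was 0.665 or above.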
